A study of Saccharomyces cerevisiae with 4 samples.

Results

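The genes of the proteasome were followed in budding yeast (Saccharomyces cerevisiae) with a mutant SUMO protease. The 37 genes were chosen by name from the 7126 features of the count table. They comprise 14 genes of the 20S core, 10 of the base and 9 of the lid of the 19S regulatory particle, and 4 others (RPN4, UMP1, ECM29 and BLM10). Each of the 37 was found, matched its RefSeq symbol and passed the filter on low counts. The mutant strain, MH1018, carried ulp1-I615N, an allele of the gene for a protease that matures SUMO and removes it from proteins. It was set against MH1006, which is wild type for ULP1, and both strains shared mating type MATa, the auxotrophic alleles ura3-52 and trp1-289 and a leu2 allele, the marker insertion lys1::kanMX4, and, by their labels, ade2-delta and ade3-delta. Both were grown to mid-log phase in YPD at 30°C, and each strain gave 2 libraries of polyadenylated RNA. The labels do not say that replicates were separate cultures. Each p-value therefore rests only on how far libraries of a strain lay apart, a spread shared in part across genes, and this spread may be technical.

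Library totals were 13244131 and 26723470 fragments for ulp1-I615N, and 15448419 and 19346393 for wild type. Transcripts of the a-specific genes STE2, MFA1, MFA2, BAR1 and STE6 ran from 47.8 to 481 CPM (fragment counts scaled to library size with TMM factors) across libraries. Of the alpha-specific genes, STE3, MF(ALPHA)1 and MF(ALPHA)2 stayed at or below 6.79 CPM, and SAG1, on chromosome X, was at 51.6 and 56.2 CPM in ulp1-I615N and 30.5 and 29.8 CPM in wild type. ADE2, labelled as deleted, was counted 3116 and 7104 times in ulp1-I615N and 6190 and 6621 times in wild type (log2 fold change -0.69 ± 0.08 SE, edgeR adjusted p = 8.78e-06). ADE3, also labelled as deleted, was counted 1368 and 3250 times in ulp1-I615N and 2327 and 2388 times in wild type (-0.40 ± 0.10, edgeR adjusted p = 0.00674). Fragments were thus counted over both genes in each library although the labels give them as deleted, and the alleles themselves were not examined. LYS1, labelled lys1::kanMX4, had 4 and 5 counts in ulp1-I615N and 4 and 5 in wild type. ULP1 had 1116 and 2061 counts in ulp1-I615N and 1118 and 1213 in wild type (log2 fold change 0.12 ± 0.08, where the error is the SE; adjusted p = 0.193 by edgeR's quasi-likelihood test and the Benjamini-Hochberg procedure, as for every adjusted p given here), and a point mutation need not alter its level. Genes of chromosome X were 1.65-fold higher in ulp1-I615N at the median, and 357 of 373 had both ulp1-I615N libraries above both wild-type libraries. Of the proteasome genes PRE3 alone lies there.

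The proteasome degrades proteins marked with ubiquitin. Its 20S core is a barrel of stacked rings, with outer alpha rings that gate the channel and inner beta rings that carry the proteolytic sites. The 19S particle caps the barrel: the ring of Rpt ATPases in its base unfolds the substrate, and the lid, through Rpn11, removes the ubiquitin chain. In yeast most of these genes are driven by the transcription factor Rpn4, which binds an element named PACE and is itself degraded by the proteasome, so that a shortage of activity raises Rpn4 and with it the supply of subunits.

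The PACE element was sought as GGTGGCAAA on either strand, in the window from 250 bases before to 50 bases after each gene start in the sacCer3 (R64) genome of RefSeq. The gene start read ATG in 37 of the 37 genes. The letters were found in 28 of the 37 proteasome promoters (75.7%), and in 72 of 6001 promoters of all protein-coding genes (1.1998%). Among proteasome genes they were present in 12 of 14 core genes, 8 of 10 base genes, 7 of 9 lid genes and, of the others, ECM29. The first base of the match lay 84 to 183 bases before the start, with a median of 122, and it was read on the strand of the gene in 20 promoters and on the opposite strand in 8. PRE5, PUP1, RPN10, RPN13, RPN8, SEM1, RPN4, UMP1 and BLM10 had no match in this window, which says only that these letters were not there. The sites below are written 5′ to 3′ on the strand that reads the element, which is in capitals. They were chosen to show a large and a small change (PRE3 and PUP2), the largest changes in the base, lid and other genes (RPT2, RPN6 and ECM29) and the beta ring gene next after PRE3 (PRE7). RPT4 and RPN5 are shown because each shares its site with a divergent gene, and UBI4, the polyubiquitin gene, because it is not a subunit gene and changed most among the others with the element.
PRE3, chrX:435035-435063, plus strand: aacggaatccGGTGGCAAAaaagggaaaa
PRE7, chrII:141150-141178, plus strand: aaactcaaagGGTGGCAAAaacaagcggt
PUP2, chrVII:999226-999254, minus strand: aaccaagaccGGTGGCAAAagagtaacct
RPT2, chrIV:437906-437934, plus strand: gtttttctccGGTGGCAAAtgtctctttt
RPT4, chrXV:813802-813830, plus strand: ctttcccttcGGTGGCAAAttccactatt
RPN5, chrIV:190776-190804, plus strand: ttgacttttcGGTGGCAAAatgcaaaggg
RPN6, chrIV:286790-286818, minus strand: tggttccaagGGTGGCAAAtgttggtaga
ECM29, chrVIII:39943-39971, plus strand: gccttttcttGGTGGCAAAaaaaaggtac
UBI4, chrXII:65349-65377, plus strand: cgaattcaaaGGTGGCAAAacccggagcc

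Proteasome transcripts were higher in ulp1-I615N by a small amount that was alike across most of the complex. Calls were made at an adjusted p of 0.05 over 6139 tested genes. By that rule 32 of the 37 genes rose in ulp1-I615N, 5 missed the threshold and 0 fell. Among all tested genes 26.4% were called higher and 24.3% lower. Outside chromosome X these shares were 22.3% and 25.9%, and 31 of 36 proteasome genes were higher. The median log2 fold change of the 37 genes was 0.30 (1.23-fold), against 0.01 for all tested genes. The 37 genes took 1.16% and 1.10% of the counts in ulp1-I615N, and 0.856% and 0.822% in wild type. Both ulp1-I615N libraries lay above both wild-type libraries for 35 of the 37 genes, against 38.1% of all tested genes and 34.4% of those outside chromosome X, and the exceptions, PUP2 and SEM1, overlapped. The changes ran from 0.03 for SEM1 to 0.97 for PRE3 on the log2 scale, and only PRE3 and ECM29 exceeded 0.5. When tested against a fold of 1.2 in place of no change, 4 genes passed (PRE3, ECM29, UMP1 and PRE7), beside 14.8% of all tested genes called higher and 10.4% called lower by that test. In bulk RNA, a larger share of expressing cells and more RNA per cell cannot be told apart.

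**Figure D1:**
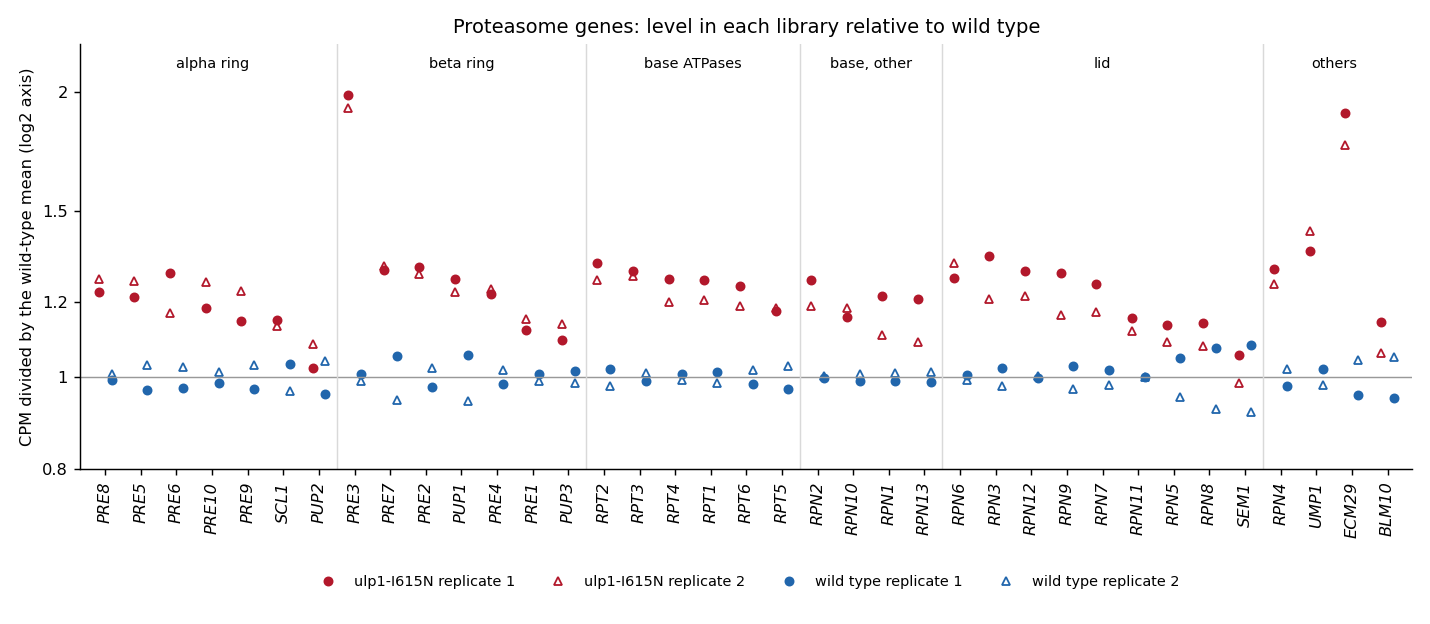
Level of each of the 37 proteasome genes in the 4 libraries (red ulp1-I615N, blue wild type; filled circles replicate 1, open triangles replicate 2), as CPM divided by the mean of the wild-type libraries, on a log2 axis. The red points lie above the blue ones for 35 genes, and PRE3 and ECM29 stand farthest above.

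The alpha ring genes encode the gate of the core. Of the 7, 6 were higher, beside 26.4% of all tested genes. PUP2 missed the threshold, and the log2 fold changes had a median of 0.29. PRE8 (YML092C, alpha 2, chromosome XIII, 85987 to 86739) showed the largest change, with 231 and 238 CPM in ulp1-I615N and 186 and 189 CPM in wild type. The groups did not overlap, and the difference was 0.32 ± 0.06 (SE) on the log2 scale (edgeR adjusted p = 0.000271). PUP2 (YGR253C, alpha 5, chromosome VII, 998358 to 999140) had 236 and 250.5 CPM in ulp1-I615N and 222 and 240.3 CPM in wild type. Here the groups overlapped, at 0.08 ± 0.06 (edgeR adjusted p = 0.350), and PUP2 holds the PACE letters shown above. With library totals as the only scaling it was called (0.21). PRE5, PRE6, PRE10, PRE9 and SCL1 changed by 0.19 to 0.31. SCL1 (0.19, edgeR adjusted p = 0.0181) was no longer called with DESeq2 (0.18, adjusted p = 0.0522), without ulp1-I615N replicate 1 (0.18), without ulp1-I615N replicate 2 (0.20) or without wild type replicate 2 (0.14), and PRE9 (0.25) was not called without ulp1-I615N replicate 2 (0.20).

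The beta ring holds the proteolytic subunits: beta 1 (PRE3) cleaves after acidic residues, beta 2 (PUP1) after basic ones and beta 5 (PRE2) after hydrophobic ones. Each of its 7 genes was higher, beside 26.4% of all tested genes, with a median of 0.32. PRE2 (YPR103W, chromosome XVI, 732349 to 733212) had 396 and 389 CPM in ulp1-I615N and 296 and 309.6 CPM in wild type, a difference of 0.37 ± 0.06 (edgeR adjusted p = 0.000143). PUP1 (YOR157C, chromosome XV, 630966 to 631751) had 239 and 232 CPM in ulp1-I615N and 199 and 178 CPM in wild type, a difference of 0.32 ± 0.07 (edgeR adjusted p = 0.000683). Neither gene's groups overlapped. The smallest change was that of PUP3 (YER094C, beta 3, chromosome V, 348729 to 349346), a subunit without a proteolytic site of its own, with 315 and 327 CPM in ulp1-I615N and 292 and 283 CPM in wild type. Its difference of 0.16 ± 0.06 (edgeR adjusted p = 0.0425) lost its call with any of the 4 libraries left out, at 0.13 to 0.19. With all 4 libraries it lost it, at 0.15 each time, with DESeq2 (adjusted p = 0.101), in edgeR with DESeq2's size factors (adjusted p = 0.0643) and after thinning to equal totals (edgeR adjusted p = 0.0613). PRE7, PRE4 and PRE1 changed by 0.38, 0.30 and 0.19, and PRE1 was not called with DESeq2 (0.18, adjusted p = 0.0600) or without ulp1-I615N replicate 2 (0.17).

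PRE3 (YJL001W, beta 1, chromosome X, 435163 to 435926, 2 exons) stood apart from the other catalytic genes. It was counted 5429 and 10380 times in ulp1-I615N and 2951 and 3510 times in wild type. This came to 381 ± 9.07 CPM in ulp1-I615N and 195 ± 2.21 CPM in wild type (SD, n = 2 each), a rise of 1.96-fold (log2 fold change 0.97 ± 0.06 SE, edgeR adjusted p = 4.48e-09). Per kb of coding length, PRE3 stood at 1.61 and 1.54 times the mean of the other 13 core genes in ulp1-I615N, and at 0.977 and 0.959 times that mean in wild type. The libraries of each strain were therefore close, and PRE3 ranked first of the 37 genes by level per kb in ulp1-I615N and eighth in wild type. PRE3 is the only one of the 37 on chromosome X, where 338 of 373 tested genes were higher. The median change on that chromosome was 0.73 on the log2 scale, 0.24 below that of PRE3, and 107 of its genes lay above PRE3. Its 20 nearest genes that averaged at least 50 counts lay within 21.8 kb. Of these 16 were higher and 2 lower, with a median of 0.61, and 3 lay above PRE3. The ulp1-I615N allele and the raised chromosome X occur in the same libraries. Their parts in the change of PRE3, or of any gene on another chromosome, therefore cannot be told apart.

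**Figure D2:**
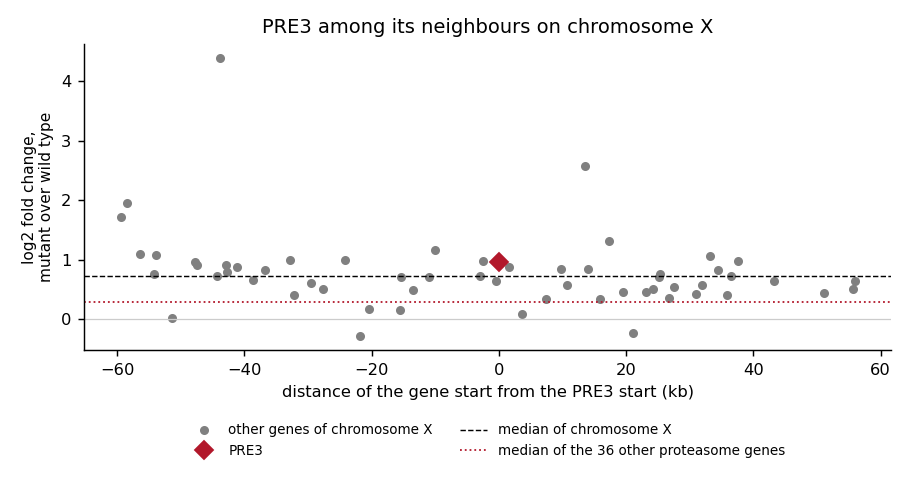
Log2 fold change of the tested genes within 60 kb of PRE3, by the distance of each gene start from the PRE3 start in kb (grey points; red diamond, PRE3). The dashed line is the median of chromosome X (0.73) and the dotted line the median of the other 36 proteasome genes (0.29), and PRE3, at 0.97, lies above both.

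In the base, each of the 10 genes was higher, beside 26.4% of all tested genes. The 6 Rpt genes, which encode the ring of ATPases that unfolds substrates, had a median log2 fold change of 0.31. RPT2 (YDL007W, chromosome IV, 438047 to 439360) had 373 and 358 CPM in ulp1-I615N and 289 and 277 CPM in wild type, a difference of 0.37 ± 0.06 (edgeR adjusted p = 0.000153). RPT5 (YOR117W, chromosome XV, 545029 to 546333) had 311 and 313 CPM in ulp1-I615N and 257 and 272 CPM in wild type, the smallest change of the ring at 0.24 ± 0.06 (edgeR adjusted p = 0.00463). The ATPase genes thus changed by 0.24 to 0.37, with no overlap between groups in any of them. Of all tested genes, 38.1% had both ulp1-I615N libraries above both wild-type libraries. RPT1 overlaps another annotated feature, so its counts are uncertain. The other base genes encode the scaffolds Rpn1 and Rpn2 and the ubiquitin receptors Rpn10 and Rpn13, and their median was 0.22. RPN2 (YIL075C, chromosome IX, 217863 to 220700) had 654 and 614 CPM in ulp1-I615N and 514 and 517 CPM in wild type, a difference of 0.30 ± 0.07 (edgeR adjusted p = 0.00247). RPN13 (YLR421C, chromosome XII, 965090 to 965560) had 158 and 143 CPM in ulp1-I615N and 129 and 133 CPM in wild type, a difference of 0.20 ± 0.07 (edgeR adjusted p = 0.0211). It was not called with DESeq2 (0.19, adjusted p = 0.0854), without ulp1-I615N replicate 1 (0.12) or without wild type replicate 1 (0.16). RPN1, at 0.22 with all 4 libraries, was not called without ulp1-I615N replicate 1 (0.15) or without wild type replicate 1 (0.19).

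Of the 9 lid genes 6 were higher, beside 26.4% of all tested genes, and the median was 0.28. The other 3 (RPN5, RPN8 and SEM1) were not called. RPN5 and RPN8, at 0.15 each, changed about as much as PUP3 of the beta ring (0.16), which was called. RPN6 (YDL097C, chromosome IV, 285391 to 286695), whose product clamps the lid to the core, had 387 and 402 CPM in ulp1-I615N and 306 and 302 CPM in wild type. Its difference was 0.37 ± 0.06 (edgeR adjusted p = 0.000134). RPN11 (YFR004W, chromosome VI, 153393 to 154313), the gene of the deubiquitinase, had 184 and 179 CPM in ulp1-I615N and 159.9 and 159.7 CPM in wild type. The groups lay apart, at 0.18 ± 0.06 (edgeR adjusted p = 0.0168), and the call was lost with DESeq2 (0.17, adjusted p = 0.0755) and without ulp1-I615N replicate 1 (0.16). RPN5 (YDL147W, chromosome IV, 190924 to 192261), a scaffold subunit, had 345 and 330.4 CPM in ulp1-I615N and 317 and 289 CPM in wild type (0.15 ± 0.07, edgeR adjusted p = 0.0673). RPN8 (YOR261C, chromosome XV, 815915 to 816931), the partner of Rpn11, had 289.6 and 274 CPM in ulp1-I615N and 273 and 235 CPM in wild type (0.15 ± 0.07, edgeR adjusted p = 0.101). Wild type replicate 1 was the higher of its group in both genes, and both were called without it, RPN5 at 0.21 and RPN8 at 0.24. With library totals as the only scaling both were called, RPN5 at 0.29 and RPN8 at 0.28, and RPN5 also with factors from genes outside chromosome X (0.18). SEM1 (YDR363W-A, chromosome IV, 1202128 to 1202397), the smallest subunit gene, had 123 and 115 CPM in ulp1-I615N and 126 and 107 CPM in wild type. Its groups overlapped, at 0.03 ± 0.08 (edgeR adjusted p = 0.786), and the sign turned without ulp1-I615N replicate 1 (-0.018) or wild type replicate 2 (-0.087). RPN3, RPN12, RPN9 and RPN7 changed by 0.35, 0.33, 0.29 and 0.28.

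**Figure D3:**
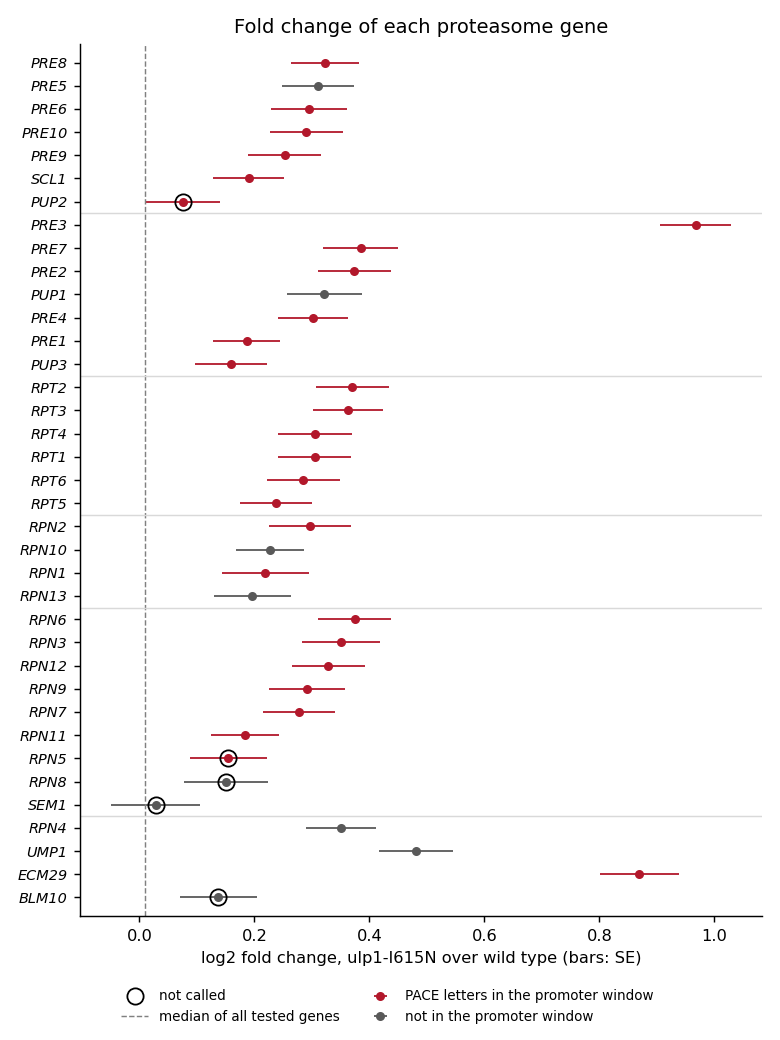
Log2 fold change of each of the 37 genes with its SE (horizontal axis), grouped from top to bottom as alpha ring, beta ring, base ATPases, other base genes, lid and others. Red points have the PACE letters in the promoter window, grey points do not, rings mark the 5 genes not called, and the dashed line is the median of all tested genes (0.01).

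Core, base and lid were set side by side by the level of their genes per kb of coding length. The mean over the 14 core genes was 387 and 390.3 CPM per kb in ulp1-I615N, and 309.7 and 310.3 in wild type. The mean over the 10 base genes was 272 and 259.8 CPM per kb in ulp1-I615N, and 218 and 220.0 in wild type. The mean over the 9 lid genes was 257 and 244 CPM per kb in ulp1-I615N, and 225 and 208 in wild type. In each subcomplex both ulp1-I615N libraries stood above both wild-type libraries, and the ratio of the means was 1.253 for the core, 1.214 for the base and 1.158 for the lid. Without PRE3 the core ratio was 1.201, below that of the base. The lid mean includes SEM1, which stood at 1.77 and 1.75 times that mean in ulp1-I615N and at 2.08 and 1.91 times in wild type. SEM1 changed least of the lid genes (0.03), so it lowers the lid ratio. A ratio without SEM1 was not taken, so the ratios do not show that the lid as a whole rose less. The level of core over 19S genes per kb was 1.46 and 1.55 in ulp1-I615N and 1.40 and 1.45 in wild type. The groups did not overlap, but the gap between them was smaller than that between the ulp1-I615N libraries. Without PRE3 the level of core over 19S genes was 1.40 and 1.49 in ulp1-I615N and 1.40 and 1.45 in wild type, so the groups overlapped. The alpha ring stood at 0.813 and 0.829 times the beta ring in ulp1-I615N and at 0.881 and 0.932 times in wild type, and the groups did not overlap. Once PRE3 was left out it stood at 0.872 and 0.882 times in ulp1-I615N and at 0.870 and 0.922 times in wild type, where the groups overlapped. The median log2 fold changes were 0.30 for the core, 0.29 for the base and 0.28 for the lid, and 0.25 for the lid with RPN10, which sits between base and lid, counted there.

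**Figure D4:**
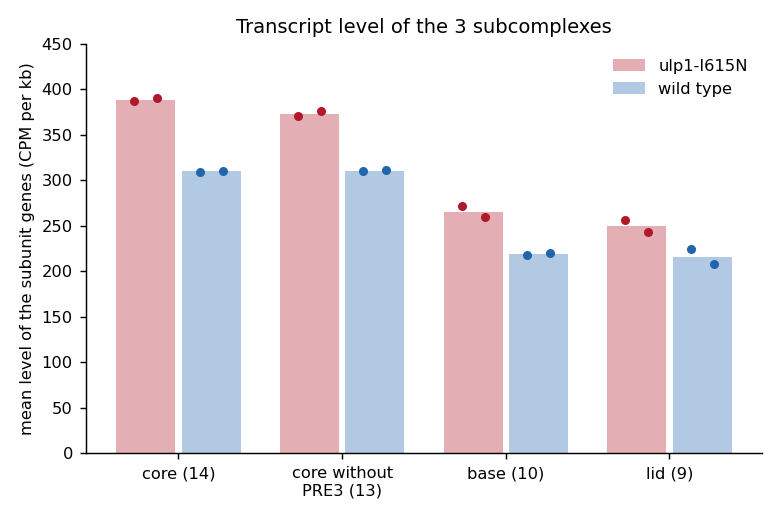
Mean level of the genes of each subcomplex in CPM per kb (bars, mean of 2 libraries; points, the libraries; red ulp1-I615N, blue wild type), with the number of genes in brackets. The core lies highest in both strains, at 389 in ulp1-I615N and 310.02 in wild type, and each subcomplex is higher in ulp1-I615N.

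Levels also differed among subunits within a strain, by more than between strains. Across the 33 structural genes the highest level per kb was 3.27 and 3.46 times the lowest in ulp1-I615N, and 3.35 and 3.28 times in wild type. The alpha ring genes lay close to each other, with a coefficient of variation of 12.997% and 10.2% in ulp1-I615N and 10.8% and 10.03% in wild type. The base genes were about as close, at 11.3% and 9.92% in ulp1-I615N and 11.9% and 12.3% in wild type. The core genes as a whole spread by 22.2% and 20.7% in ulp1-I615N and 17.8% and 17.5% in wild type. The lid genes spread most, at 33.1% and 33.8% in ulp1-I615N and 44.9% and 38.2% in wild type. SEM1 was the highest of them in each library, and their spread without SEM1 was not taken. SEM1 stood at 441 CPM per kb in ulp1-I615N and 432 in wild type, while RPN9 and RPN12, also of the lid, stood at 176 and 178 CPM per kb in ulp1-I615N and 144 and 141 in wild type. Per kb values of a gene as short as SEM1 depend on how fragments near its ends were counted.

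RPN4 (YDL020C, chromosome IV, 415113 to 416708), the gene of the transcription factor, was higher too. It had 181 and 174 CPM in ulp1-I615N and 136 and 142 CPM in wild type, so the groups did not overlap. The difference was 0.35 ± 0.06 (1.28-fold, edgeR adjusted p = 0.000164), and it stayed called with any of the 4 libraries left out. Per kb, RPN4 was at 0.368 and 0.361 times the mean of the structural genes other than PRE3 in ulp1-I615N, and at 0.331 and 0.350 times in wild type. The protein, whose amount is set largely by its degradation, was not measured. RPN4 is known to be activated by Yap1, by Pdr1 and Pdr3, and by the heat shock factor Hsf1, so letters known from their elements, chosen after the data were seen, were sought in the 500 bases before each start, on both strands. The RPN4 window held TTACTAA of Yap1 once, 374 bases before the start, and 11.8% of 6000 such windows held it. TCCGTGGA of Pdr1 and Pdr3 occurred at 442 and 399 bases before the start, against 1.05% of windows with it, and their form TCCGCGGA was not there. The heat shock pair TTCNNGAA began at 348 and 21 bases before the start, and 21.2% of windows held it.

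UMP1 and ECM29, which act on assembled or assembling particles, were raised beyond the median of the subunit genes. UMP1 (YBR173C, chromosome II, 581726 to 582172) encodes the chaperone of core assembly that becomes the first substrate of the finished core. It had 129 and 135 CPM in ulp1-I615N and 96.8 and 93.1 CPM in wild type, a 1.40-fold rise (log2 fold change 0.48 ± 0.06, edgeR adjusted p = 1.18e-05). ECM29 (YHL030W, chromosome VIII, 40084 to 45690) encodes a large adaptor that tethers core and regulatory particle and acts in the control of assembly. It had 178 and 165 CPM in ulp1-I615N and 89.5 and 97.6 CPM in wild type, a 1.83-fold rise (log2 fold change 0.87 ± 0.07, edgeR adjusted p = 4.22e-08). Neither gene's groups overlapped, and both stayed called with any library left out. Per kb, ECM29 was at 0.103 and 0.0972 times the mean of the structural genes other than PRE3 in ulp1-I615N, and at 0.0621 and 0.0686 times in wild type. BLM10 (YFL007W, chromosome VI, 123479 to 129910), which encodes a cap that binds the core in place of the 19S particle, had 212 and 196 CPM in ulp1-I615N and 176 and 194 CPM in wild type. The libraries came close to each other, at 0.14 ± 0.07 (edgeR adjusted p = 0.0995), although the groups did not overlap. BLM10 was called without wild type replicate 2 (0.21), with library totals as the only scaling (0.27) and with factors from genes outside chromosome X (0.17).

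Genes with and without the PACE letters were compared across the genome. Of the 28 proteasome genes with the element 26 were higher, and of the 9 without it 6 were higher, with median log2 fold changes of 0.30 and 0.23. Outside the proteasome 44 genes held the element and 42 were tested, of which 24 were higher, 8 lower and 10 not called, with a median of 0.28. Of the 5694 other tested protein-coding genes without it, 26.9% were higher, and the median was 0.01. Outside chromosome X, 22 of 40 such genes were higher (55.0%), against 22.6% of those without the element. With the last base of the motif dropped the list grew to 71 tested genes, with 30 higher, 17 lower and a median of 0.14. No test of enrichment was made.

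UBI4 showed the largest change among these other genes. It had 412 and 392 CPM in ulp1-I615N and 119 and 114 CPM in wild type (3.45-fold, log2 fold change 1.79 ± 0.06, edgeR adjusted p = 5.69e-12). It encodes a chain of ubiquitin units, and since other genes encode nearly the same units, its counts are uncertain. The next largest changes, of SDH9 (1.68), MEF2 (1.35) and YBR284W (1.15), include SDH9 and MEF2 from chromosome X. CUZ1, whose product binds Cdc48 and the proteasome, had 145 and 143 CPM in ulp1-I615N and 95.2 and 89.9 CPM in wild type (0.64 ± 0.06, edgeR adjusted p = 5.34e-07). The gene of the ubiquitin-activating enzyme, UBA1, had 483 and 485 CPM in ulp1-I615N and 387 and 415 CPM in wild type (0.27 ± 0.07, edgeR adjusted p = 0.00361). CUZ1 and UBA1 were named after their values were seen.

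In 7 cases the site of a proteasome gene also lay in the window of a divergent neighbour. The neighbours ALG13, MPO1, YPI1, YTH1 and YOL038C-A were higher, at 0.36 to 0.75, beside RPT6, SCL1, RPN11, RPN7 and PRE6 at 0.18 to 0.30. In the other 2 pairs the neighbour was lower. GCD1, a gene of translation initiation, had 238 and 238 CPM in ulp1-I615N and 277 and 287 CPM in wild type (-0.25, edgeR adjusted p = 0.00297), while RPT4, across the same site, was at 0.31 (edgeR adjusted p = 0.000854). NOP14, a gene of small ribosomal subunit assembly, had 194 and 188 CPM in ulp1-I615N and 259.99 and 271 CPM in wild type (-0.48, edgeR adjusted p = 7.06e-06), and RPN5 across its site was not called. Sharing the element was therefore met with changes in either direction, in 7 pairs that were not tested as a group.

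**Figure D5:**
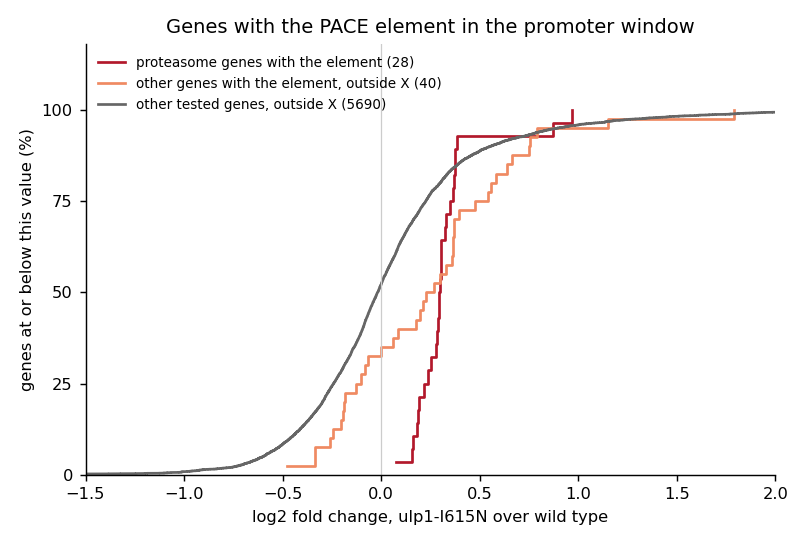
Cumulative share of genes (vertical axis, %) by log2 fold change (horizontal axis) for the 28 proteasome genes with the PACE letters (red), 40 other genes with them outside chromosome X (orange) and 5690 other tested genes outside chromosome X (grey). The red curve climbs steeply near 0.30, and the orange curve lies to the right of the grey one over most of the range; 52 grey genes fall outside the axis.

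Genes that build, serve or control the proteasome were read from lists of 27 further genes. Of 9 assembly chaperones 5 rose, 0 fell and 4 missed the threshold (median 0.25), beside 26.4% of all tested genes called higher and 24.3% lower. TMA17, a chaperone of base assembly that is induced by stress, had 94.3 and 92.4 CPM in ulp1-I615N and 57.5 and 40.3 CPM in wild type (0.94 ± 0.15, edgeR adjusted p = 0.00207). PBA1, a chaperone of alpha ring assembly, had 75.4 and 70.3 CPM in ulp1-I615N and 50.3 and 47.8 CPM in wild type (0.57 ± 0.08, edgeR adjusted p = 1.63e-05), and NAS6, a base chaperone, had 63.5 and 60.1 CPM in ulp1-I615N and 42.3 and 45.1 CPM in wild type (0.50 ± 0.08, edgeR adjusted p = 9.64e-05). The groups of these 3 genes did not overlap. The count fell to 3 with DESeq2, where NAS2 (0.30) and HSM3 (0.24) were not called, and without ulp1-I615N replicate 1, where NAS2 (0.27) and HSM3 (0.18) were not called, and HSM3 was not called without wild type replicate 1 (0.13). IRC25, at -0.23 and not called, was called lower without ulp1-I615N replicate 2 (-0.38) or wild type replicate 2 (-0.31).

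Among 11 genes of receptors and enzymes that work at the proteasome, 8 rose, 0 fell and 3 missed the threshold (median 0.37). The shares over all tested genes were 26.4% higher and 24.3% lower. SPG5, which is needed for proteasome maintenance in stationary phase, had 112 and 108 CPM in ulp1-I615N and 62.5 and 65.0 CPM in wild type (0.79 ± 0.07, edgeR adjusted p = 1.09e-07). DDI1, a shuttle factor with a protease-like domain, had 113 and 102 CPM in ulp1-I615N and 64.6 and 63.2 CPM in wild type (0.75 ± 0.07, edgeR adjusted p = 3.48e-07). The other shuttle genes were not called, DSK2 at 0.14 and RAD23 at -0.13, and RAD23 changed sign with library totals as the only scaling (0.01). DSK2 was called under that scaling (0.27) and with factors from genes outside chromosome X (0.17). FUB1, the yeast relative of the proteasome regulator PI31, had 37.5 and 38.9 CPM in ulp1-I615N and 27.1 and 25.3 CPM in wild type (0.55 ± 0.09, edgeR adjusted p = 0.000132).

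Among 7 genes that act on RPN4 or on its protein, 4 rose, 1 fell and 2 missed the threshold (median 0.29). Over all tested genes 26.4% were called higher and 24.3% lower, so calls in both directions were common. The activator gene YAP1, which itself holds the PACE letters, had 249.9 and 236 CPM in ulp1-I615N and 193 and 182 CPM in wild type (0.37 ± 0.06, edgeR adjusted p = 0.000123). UBR2, the gene of the ubiquitin ligase that targets Rpn4, had 44.1 and 43.4 CPM in ulp1-I615N and 33.5 and 36.8 CPM in wild type (0.31 ± 0.09, edgeR adjusted p = 0.00796). HSF1 had 104 and 98.95 CPM in ulp1-I615N and 78.2 and 85.5 CPM in wild type (0.31 ± 0.07, edgeR adjusted p = 0.00165). UBR2 was not called without wild type replicate 1 (0.23), and HSF1 overlaps 2 other features, so its counts are uncertain. RAD6, the ubiquitin-conjugating enzyme that works with Ubr2, had 81.1 and 81.6 CPM in ulp1-I615N and 95.8 and 89.7 CPM in wild type (-0.19 ± 0.07, edgeR adjusted p = 0.0297). Its call was lost with library totals as the only scaling (-0.057), with factors from genes outside chromosome X (-0.16), with DESeq2 (-0.20), without ulp1-I615N replicate 1 (-0.18), without ulp1-I615N replicate 2 (-0.19) and without wild type replicate 1 (-0.16).

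The size of these small changes depends on how libraries are scaled. With library totals only, the median of all genes moved to 0.14 and calls split into 2217 higher and 866 lower, in place of 1622 higher and 1494 lower. The median of the 37 genes moved to 0.43, and 36 were higher. Relative to the median of all genes, the 37 genes stood at 0.29 under either scaling, and 37 of 37 lay above it. A change of scaling moves all genes by nearly the same amount, so this could hardly have come out otherwise. With 1 library left out the 37 genes stood at 0.26 to 0.32 relative to that median, and 36 or 37 of them lay above it.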

How the data were processed

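Polyadenylated RNA of 4 libraries (2 ulp1-I615N, 2 wild type) was sequenced with a directional kit, as the labels' protocols state. Values in the deposited table are unnormalised counts of fragments for each gene; per the file headers the authors made it with featureCounts 2.0.0 on read pairs, without strand, multi-mapping or overlap options, so overlapping and antisense genes are uncertain in these counts. HISAT2 2.1.0 and the build sacCer3 are named in the submitters' processing notes, which give no annotation version. Groups came from sample titles. The 37 genes and the lists were chosen with earlier results of these data known.

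Counts were tested with edgeR 4.0.16 (R 4.3.3; quasi-likelihood F test, robust, TMM, default filter at 10 counts and a total of 15, no replicate block), ulp1-I615N over wild type, over 6139 genes, with Benjamini-Hochberg adjustment at 0.05. Standard errors come from the F statistics. CPM use TMM-scaled totals; CPM per kb divides by the length in the table. The test was also run on simulated counts, with the same variability for each gene and few changed genes. These data differ in both, so that run is no support for the calls made here. Between replicates the chi-square per degree of freedom was 8.83 (ulp1-I615N) and 9.72 (wild type), above sampling noise, so each library was kept. A count of 0 allows up to 0.227 CPM in the shallowest library (3 counts, counting error only). Promoters were read from the RefSeq R64 genome; 6036 of 6048 matched genes share start and end with the table, and 0 nuclear features exceed its chromosomes. Each member is accounted for; per-library values are given for RPN4, UMP1, ECM29, BLM10, the catalytic genes, RPN11, the largest and smallest change in each group, members not called, and up to 3 called genes of each further list. Alternatives were other scalings, filters and tools (DESeq2 1.42.0, limma-voom 3.58.1), a null of a 1.2-fold change, thinning to 13244131 counts, the replicate block and each library left out.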

Additional observations from a re-analysis of the deposited data

How the results depend on the processing

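Over 15 alternatives 0 of the 37 proteasome genes was called lower, and 32 were called higher in the edgeR test reported here. The count of genes called higher was 27 with DESeq2 (without SCL1, PUP3, PRE1, RPN13 and RPN11), 32 with limma-voom, 35 with the replicate block and 27 to 31 with 1 library left out; 25 of the 32 genes kept their call in each alternative other than the test against a fold of 1.2. That test called 4 genes higher, with 2 in the core, 0 in the base and 0 in the lid, and among the further lists it called 3 assembly chaperones, 5 receptors and enzymes and 0 genes that control Rpn4; it called 11 higher and 1 lower of the other genes with PACE. Of all tested genes it called 14.8% higher and 10.4% lower, and it asks for a larger change by construction. With library totals only, medians were 0.43 for the 37 genes, 0.43 for the core, 0.42 for the base, 0.41 for the lid and 0.42 for the other PACE genes, of which 3 were lower. With factors from genes outside chromosome X the median of the 37 genes was 0.32. With DESeq2, 3 assembly chaperones were higher, beside 21.3% of all tested genes. With the replicate block 1 assembly chaperone, IRC25, was lower (-0.23). The fall of RAD6, the 1 gene of its list called lower, was lost (0 lower) with library totals only, with factors from outside chromosome X, with DESeq2 and in the test against a fold. Without the last base of PACE 17 other genes were lower, with a median of 0.14. With 1 library left out, medians ran from 0.26 to 0.32 for the 37 genes, 0.25 to 0.31 for the core, 0.25 to 0.33 for the base, 0.22 to 0.33 for the lid and 0.24 to 0.34 for the other PACE genes (5 to 9 lower); higher assembly chaperones ran from 3 to 5 and lower ones from 0 to 1, and lower Rpn4 control genes from 0 to 1. Signs turned for uncalled genes only. With a library left out SEM1 ran from -0.087 to 0.13 (-0.018 without ulp1-I615N replicate 1), RPN14 from -0.0011 to 0.095, STS1 from -0.15 to 0.045 and MUB1 from -0.20 to 0.0087; with library totals only RAD23 was at 0.0054, STS1 at 0.086 and MUB1 at 0.031. Causes were not tested. Libraries with the same replicate number also share a letter in their library names, but the labels do not say what number or letter marks, so they were not taken as pairs. Deviations of same-numbered libraries correlated at 0.134 over 5732 genes, and the block raised the calls among all genes to 1776 higher and 1657 lower. The 3 proteasome genes gained under the block were RPN5 (0.16, edgeR adjusted p = 0.0188), RPN8 (0.15, edgeR adjusted p = 0.0206) and BLM10 (0.14, edgeR adjusted p = 0.0449). At these depths each of the 37 genes had at least 1345 counts in each library, so the spread between 2 libraries, not counting error, limits the small changes.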
